A study of Mus musculus with 6 samples.

Results

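The 48 genes described here encode the core machinery of macroautophagy and its cargo receptors. Their RNA was measured by sequencing in C2C12 cultures taken through myotube differentiation. C2C12 is an established line of mouse myoblasts that stop dividing and fuse when serum is lowered. The genes were chosen by gene symbol, from a list of autophagy genes divided by step. All 48 were found among the 24421 symbols of the count table. The study asked about glycophagy, in which autophagosomes carry glycogen into lysosomes. In the shGAA group (n = 3 libraries) the myoblasts had received a lentivirus carrying a short hairpin RNA against Gaa, which encodes the lysosomal enzyme that splits glycogen. In the shScrambled group (n = 3 libraries) the lentiviral hairpin had a scrambled sequence. All cells were of the C2C12 line, grown with 10% fetal bovine serum, selected with puromycin, and differentiated into myotubes with 2% horse serum and 4.5 g/l glucose. The titles of both groups carry the word Fed, which the labels do not explain. Neither the number of different hairpins nor the origin of the 3 libraries of each group (1 culture or several) is stated. The p-values below therefore reflect the scatter among these libraries alone, and that scatter may be purely technical.

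In macroautophagy a cup-shaped membrane grows around cytoplasm, closes into an autophagosome and fuses with a lysosome. A kinase complex starts the process, a lipid kinase complex marks the membrane with phosphatidylinositol 3-phosphate, and a pair of conjugation systems attaches Atg8 family proteins (LC3 and GABARAP) to it. Cargo receptors tie selected cargo to the Atg8 proteins, and tethers, a small GTPase and a SNARE protein bring about fusion with the lysosome. In skeletal muscle the pathway is known for clearing glycogen, mitochondria and protein aggregates.

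The libraries held 9224038 to 10430270 counts in shGAA and 9475245 to 9918142 in shScrambled. Gaa was at 49.1 ± 2.43 CPM (CPM is the count per 1e6 counts of the library, with library sizes scaled by TMM) in shGAA and 117 ± 9.43 CPM in shScrambled (SD, n = 3 each), a log2 fold change of -1.25 ± 0.07 (SE). The library shScrambled 1 stood apart from the rest of its group. Its chi-square per degree of freedom against the others of its group was 6.08 and 5.50, whereas all other pairs within a group gave 1.98 to 2.62. The cultures also differed in muscle and proliferation markers. The marker counts that follow stand beside 19.7% called lower and 18.5% called higher over all tested genes. Of 11 tested myotube markers 8 were lower in shGAA, and the 12 listed summed to 2336 to 2557 CPM in shGAA and 3103 to 3468 CPM in shScrambled. Of 7 tested markers of proliferating myoblasts 6 were lower and 1, Myf5, was higher, and the 8 listed summed to 868 to 979 CPM in shGAA and 1137 to 1270 CPM in shScrambled. The part of these shifts in the autophagy results was not tested. Des alone was at 1664 ± 82.0 CPM in shGAA and 2047 ± 37.2 CPM in shScrambled. Acta1 was at 276 and 453 CPM and Ckm at 6.35 and 12.1 CPM, in that order. Ttn, of the same list, went the other way, at 147 CPM in shGAA and 134 CPM in shScrambled, and was not called. Tnnt3 and Myh8 were not called either. The dividing-cell markers Top2a (304 and 382 CPM) and Mki67 (192 and 237 CPM) were present in both groups. The share of cells that had fused or still divided cannot be read from these counts. The 5 leukocyte markers summed to at most 2.25 CPM in shGAA and at most 3.60 CPM in shScrambled, and the 4 adipocyte markers to at most 0.0940 and 0 CPM. The 4 endothelial markers reached 5.23 CPM in shGAA and 4.83 CPM in shScrambled. Of these, Tek was higher at 38, 42 and 33 counts in shGAA and 9, 20 and 14 in shScrambled (1.32 ± 0.29, adjusted p = 0.00176). Cdh5 was lower at 4, 5 and 11 counts in shGAA and 17, 24 and 8 in shScrambled (-1.35 ± 0.46, adjusted p = 0.0280), while Pecam1 had 0 or 1 count in every library and Kdr at most 3. The part of Tek and Cdh5 in the autophagy results was not tested.

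Autophagy genes were more often higher than lower in shGAA, and nearly all changes were small. All 48 passed the filter on low counts. At an adjusted p under 0.05 in edgeR's quasi-likelihood test, 17 of 48 rose (35.4%), 3 fell (6.25%) and 28 did not pass. In simulated data, with far fewer changed genes than were called here, this test made more false calls than its nominal share. That excess bears most on calls near the threshold. Its size with as many changed genes as in these data was not tested. Over all 11801 tested genes 18.5% rose (2182 genes) and 19.7% fell (2330 genes), together 38.2%, so the share called in either direction was close to that of all genes. Scaled by library size alone, 2809 of all genes rose and 1872 fell, as did 19 and 1 of the autophagy genes. The median log2 fold change of the 48 was 0.08, and 0.01 over all tested genes. Every shGAA library lay above every shScrambled library for 21 of the 48, against 24.7% of all tested genes, and below for 2, against 24.9%. Calcoco1 changed most among the called genes, 1.6-fold. These are levels in bulk RNA, in which fewer cells of a type and less RNA per cell cannot be told apart. Without shScrambled 1, 15 rose and 6 fell (20% and 20.9% of all genes). Without shGAA 2, 11 rose and 2 fell, beside 1674 and 1866 of all genes. DESeq2 also called 11 higher and 2 lower, against 13.8% and 16.2% of all genes. The number lower was 2 without shGAA 1 and 1 without shGAA 3, shScrambled 2 or shScrambled 3. Of all genes 1889, 1901, 2120 and 2015 were lower in these fits, in that order.

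**Figure D1:**
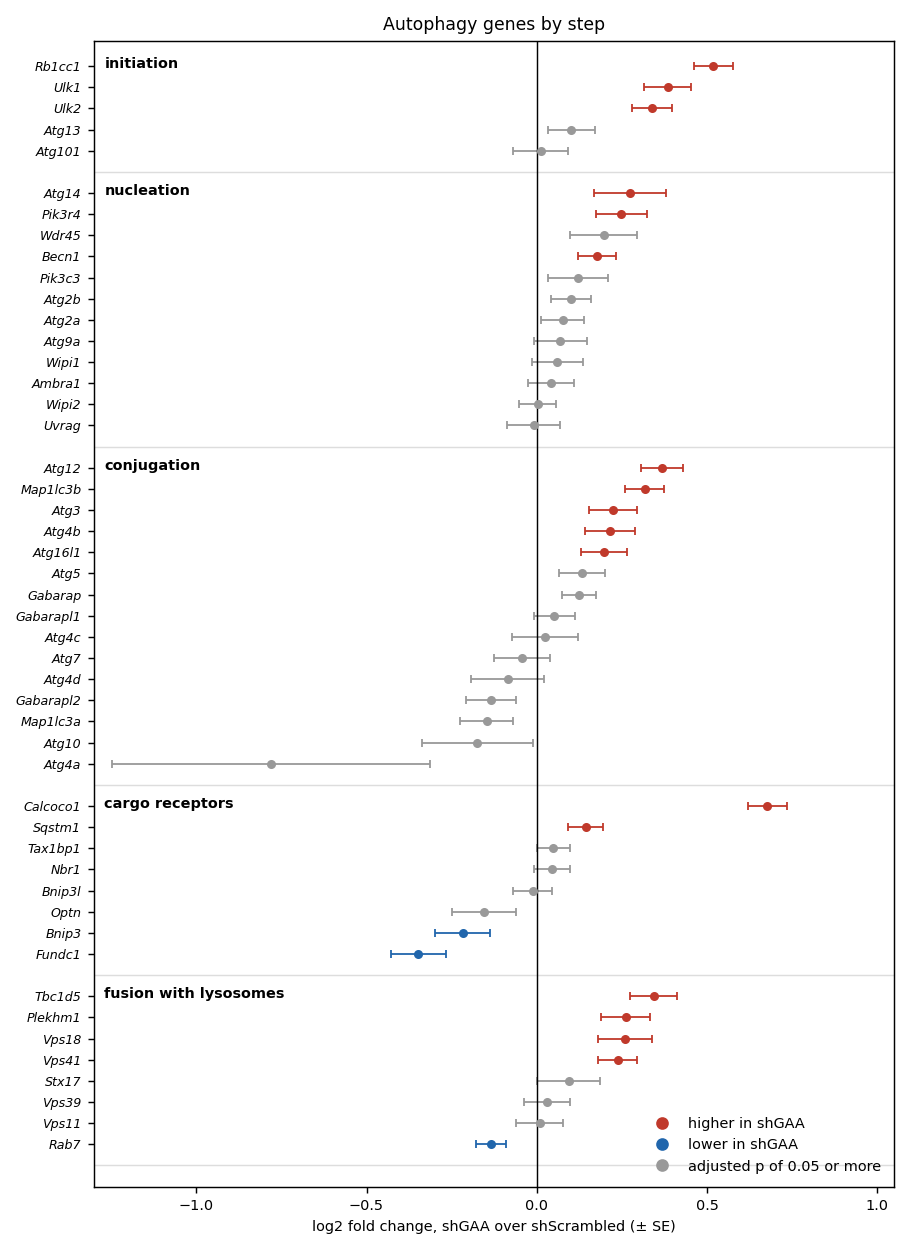
Log2 fold change of shGAA over shScrambled for each of the 48 genes, with bars of 1 SE, grouped by step of the pathway. Red points are the 17 genes called higher, blue points the 3 called lower and grey points the 28 that did not pass; Atg4a, with the widest bar, had at most 23 counts in any library.

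The calls by step stand beside 18.5% higher and 19.7% lower over all tested genes. Of the 5 initiation genes 3 rose and none fell (median log2 fold change 0.34). Of 12 nucleation genes 3 rose and none fell (0.09), and of 15 conjugation genes 5 rose and none fell (0.05). The 8 cargo receptors gave 2 rises and 2 falls (0.02, and -0.02 to 0.04 with 1 library left out), and the 8 fusion genes 4 rises and 1 fall (0.17). Initiation genes summed to 412 to 432 CPM in shGAA and 313 to 347 CPM in shScrambled. Nucleation genes summed to 713 to 734 CPM against 647 to 696 CPM, conjugation genes to 1073 to 1145 CPM against 992 to 1054 CPM, and cargo receptors to 1507 to 1590 CPM against 1348 to 1471 CPM, each in shGAA and then shScrambled. None of these ranges overlapped. Among the 8 cargo receptors Sqstm1 (647 CPM in shGAA, 586 in shScrambled) and Calcoco1 (193 and 121) differed most in CPM. Only 4 of the 8 had a log2 fold change above 0. The fusion genes summed to 933 to 954 CPM in shGAA, within the range of 899 to 968 CPM in shScrambled. In each step shScrambled 1 had the lowest sum of all 6 libraries. The steps were not tested against each other.

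The initiation complex is the kinase Ulk1 or Ulk2 with Rb1cc1 (also called FIP200), a scaffold, and the adaptors Atg13 and Atg101. Rb1cc1 had 1652, 1635 and 1890 counts in shGAA 1 to 3, against 1087, 1195 and 1161 in shScrambled 1 to 3. That is 174 ± 4.49 CPM in shGAA and 121 ± 8.63 CPM in shScrambled, with no overlap. The log2 fold change was 0.52 ± 0.06 (adjusted p = 2.53e-06). Ulk1 had 576, 614 and 734 counts in shGAA and 475, 478 and 451 in shScrambled, or 64.4 ± 5.15 against 49.4 ± 1.68 CPM (0.38 ± 0.07, adjusted p = 0.000374). Its counts were higher in every shGAA library than in any shScrambled library. The paralog Ulk2, at 878, 905 and 1020 counts in shGAA and 693, 685 and 733 in shScrambled, rose as well (0.34 ± 0.06, adjusted p = 0.000226). The count of Ulk1 over that of Ulk2 within a library, which needs no scaling, was 0.685 ± 0.0322 in shGAA and 0.666 ± 0.0445 in shScrambled (exact two-sided permutation p = 0.7, where 3 against 3 libraries allow none below 0.1). The adaptors Atg13 (0.10 ± 0.07, adjusted p = 0.261) and Atg101 (0.01 ± 0.08, adjusted p = 0.924) did not pass. The 3 rises held under all 14 alternative settings. Of Rb1cc1, 7.60% of the 50-base stretches also occur in transcripts of other genes, 4.51% in Gm13961.

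Nucleation rests on the lipid kinase Pik3c3 (Vps34) with Pik3r4 (Vps15), Becn1 and Atg14, which targets the complex to the site of autophagosome formation. Pik3r4 had 381, 390 and 426 counts in shGAA and 331, 296 and 334 in shScrambled (0.25 ± 0.08, adjusted p = 0.0157). Atg14 had 196, 202 and 205 counts in shGAA and 156, 148 and 172 in shScrambled (0.27 ± 0.11, adjusted p = 0.0490). For both genes no shGAA library was as low as any shScrambled library. Becn1 rose by 0.18 ± 0.06 (adjusted p = 0.0207), to 137 ± 8.11 CPM in shGAA, against 121 ± 3.79 CPM in shScrambled. The kinase Pik3c3 itself was at 0.12 ± 0.09 (adjusted p = 0.291). Uvrag, which replaces Atg14 in another form of the complex, was at -0.01 ± 0.08, and Ambra1, a regulator of Becn1, at 0.04 ± 0.07. The genes that supply and read the growing membrane did not pass either. These were the lipid scramblase gene Atg9a (0.07 ± 0.08), the lipid transfer genes Atg2a (0.08 ± 0.06) and Atg2b (0.10 ± 0.06), and the genes of the phosphatidylinositol 3-phosphate binders Wipi1 (0.06 ± 0.08), Wipi2 (0.00 ± 0.05) and Wdr45 (0.20 ± 0.10). Nonetheless Atg2a and Atg2b were higher in each shGAA library than in any shScrambled library. Each of the 3 nucleation calls was lost when 1 library was left out. Becn1 was at an adjusted p of 0.0643 without shGAA 1 and 0.119 without shGAA 2, and Pik3r4 at 0.0698 without shGAA 2, 0.0647 without shScrambled 2 and 0.0581 with DESeq2. Atg14 did not pass without any one of shGAA 1, shGAA 2, shGAA 3, shScrambled 1 or shScrambled 2 (0.0631 to 0.167), nor in 4 other settings. Becn1 overlaps Cntd1 on the opposite strand over 43.9% of its exonic bases, and Cntd1 had at most 3 counts in any library.

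Of the 5 Atg8 family genes 1 passed the test, beside 38.2% of all tested genes in either direction. Map1lc3b, which encodes the form of LC3 most used as an autophagosome marker, rose, while its paralog Map1lc3a and the 3 GABARAP genes did not pass. Map1lc3b had 1462, 1478 and 1477 counts in shGAA and 1120, 1127 and 1139 in shScrambled. This was 149 ± 9.46 CPM in shGAA and 119 ± 3.61 CPM in shScrambled (0.32 ± 0.06, adjusted p = 0.000325). Map1lc3a had 739, 839 and 795 counts in shGAA and 782, 850 and 878 in shScrambled (-0.15 ± 0.08, adjusted p = 0.146), and its CPM overlapped between the groups. Map1lc3b over Map1lc3a within a library was 1.98, 1.76 and 1.86 in shGAA and 1.43, 1.33 and 1.30 in shScrambled. The ratios did not overlap, at an exact two-sided permutation p of 0.1, the smallest that 3 against 3 libraries allow, and 0.267 after adjustment over 8 paralog pairs.

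Gabarap, of the GABARAP branch, had 3484, 3256 and 3494 counts in shGAA and 2905, 3039 and 3015 in shScrambled. Its shGAA libraries were all higher, as for 24.7% of all tested genes, but the test did not pass (0.12 ± 0.05, adjusted p = 0.0569). It passed in 5 of the 14 alternative settings, among them without shGAA 3 (0.0370) and without shScrambled 2 (0.0490). Gabarapl1, the family member that binds the glycogen receptor Stbd1, had 973, 949 and 969 counts in shGAA and 869, 908 and 886 in shScrambled (0.05 ± 0.06, adjusted p = 0.520). In CPM these groups overlapped. Gabarapl2 had 488, 514 and 560 counts in shGAA and 510, 582 and 541 in shScrambled, also overlapping (-0.13 ± 0.07, adjusted p = 0.162). Gabarapl2 over Gabarap was 0.153 ± 0.0110 in shGAA and 0.182 ± 0.00832 in shScrambled (exact permutation p = 0.1, adjusted 0.267). Without shScrambled 1 Map1lc3a (adjusted p = 0.00767) and Gabarapl2 (0.0196) were called lower, and Map1lc3a also without shGAA 2 (0.0290). Stbd1 itself, one of the further autophagy genes described below, was called lower (-0.28 ± 0.07, adjusted p = 0.00263). It was at 43.6 ± 1.03 CPM in shGAA and 53.1 ± 1.32 CPM in shScrambled, with no overlap.

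**Figure D2:**
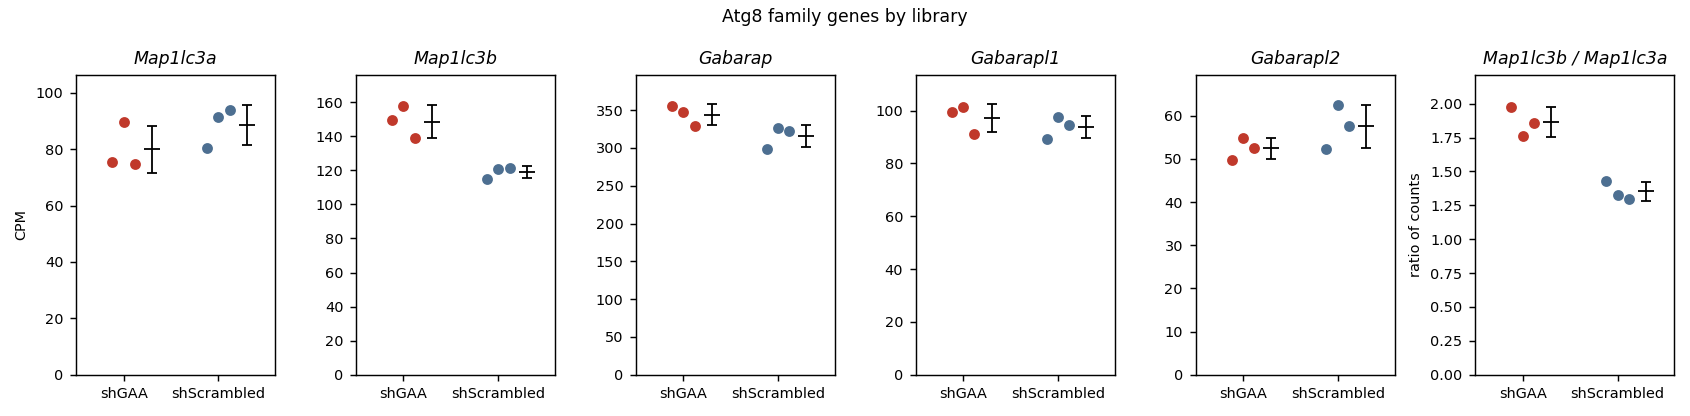
CPM of the 5 Atg8 family genes, and the ratio of Map1lc3b to Map1lc3a counts, in each library, with shGAA (red) left of shScrambled (blue) and the mean with SD beside the points (n = 3 each). Map1lc3b and Gabarap were higher in every shGAA library, and the ratio lay between 1.76 and 1.98 in shGAA, above the 1.30 to 1.43 of shScrambled.

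Levels of different genes were compared per kilobase of the longest coding transcript. On that scale Gabarap was at 255 ± 10.4 CPM per kilobase in shGAA and 234 ± 11.1 in shScrambled, or 54.5% ± 1.44 and 52.6% ± 0.324 of the family sum (SD, n = 3 each). Map1lc3a followed with a share of 15.4% ± 1.12 in shGAA and 17.9% ± 0.603 in shScrambled. Map1lc3b held 12.1% ± 0.237 in shGAA and 10.2% ± 0.251 in shScrambled, Gabarapl1 11.4% ± 0.152 and 11.6% ± 0.172, and Gabarapl2 6.70% ± 0.386 and 7.72% ± 0.329. Over merged exons, which are 7517 bases long for Map1lc3b against 2633 in its longest coding transcript, Map1lc3b held 5.73% and 4.76% and ranked last. Its place in the order therefore depends on the length used. Among all 48 genes Rab7, Gabarap and Sqstm1 had the highest levels per kilobase in shScrambled by both lengths, and Atg4d and Atg4a the lowest.

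The enzymes that attach Atg8 proteins to lipid showed 4 more rises. Atg12, a ubiquitin-like protein that is joined to Atg5, had 667, 679 and 751 counts in shGAA and 518, 528 and 503 in shScrambled. Its groups were well apart, at 70.4 ± 2.16 CPM in shGAA and 54.5 ± 1.89 CPM in shScrambled (0.37 ± 0.06, adjusted p = 0.000156). Atg16l1, which carries the Atg12-Atg5 conjugate to the membrane, rose by 0.20 ± 0.07 (adjusted p = 0.0307), and Atg3, the enzyme that transfers Atg8 proteins to lipid, by 0.22 ± 0.07 (adjusted p = 0.0176). Atg4b, the main protease that trims Atg8 proteins, rose by 0.22 ± 0.07 (adjusted p = 0.0297), although its libraries overlapped in CPM. Atg5 (0.13 ± 0.07, adjusted p = 0.134), the activating enzyme Atg7 (-0.04 ± 0.08) and the Atg12-transferring enzyme Atg10 (-0.18 ± 0.16) did not pass. The other proteases Atg4c (0.02 ± 0.10) and Atg4d (-0.09 ± 0.11) did not pass, nor did Atg4a, at 23, 11 and 3 counts in shGAA and 19, 19 and 23 in shScrambled. Atg4a is uncertain, since 51.2% of its 50-base stretches also occur in the pseudogene Atg4a-ps. The Atg12 and Map1lc3b calls held in all 14 alternative settings. Atg3 was lost without shGAA 3 (0.0835) or shScrambled 3 (0.0801) and with DESeq2 (0.0556). Atg4b was lost without shGAA 1 (0.197), shGAA 2 (0.0759) or shScrambled 2 (0.0634) and with the replicate number as a block (0.0532), DESeq2 (0.0618) or the length and GC correction (0.0738). Atg16l1 was lost without shGAA 1 (0.129), shGAA 3 (0.0783), shScrambled 2 (0.119) or shScrambled 3 (0.0904) and with DESeq2 (0.0858) or the length and GC correction (0.0615).

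Cargo receptors included the largest called rise and the largest called fall. Calcoco1 encodes a receptor for the selective autophagy of endoplasmic reticulum and Golgi membranes. It lies on chromosome 15 at 102706777 to 102722178 (GRCm38.p6), with 1.43% of its 50-base stretches shared with other genes. It had 1805, 1922 and 2017 counts in shGAA and 1151, 1186 and 1092 in shScrambled. In CPM this was 193 ± 10.8 in shGAA and 121 ± 5.81 in shScrambled, a log2 fold change of 0.68 ± 0.06 (adjusted p = 1.26e-07) that held in all 14 alternative settings. Sqstm1 (p62), the receptor for ubiquitin-tagged cargo and itself a substrate of autophagy, had 6183, 6483 and 6578 counts in shGAA and 5360, 5587 and 5689 in shScrambled. All shGAA libraries were higher, by a small margin (0.14 ± 0.05, adjusted p = 0.0368). This call was lost without shGAA 1 (0.0561), shGAA 2 (0.224) or shScrambled 1 (0.0918) and with DESeq2 (0.0535). Sqstm1 overlaps Mrnip on the opposite strand over 17.3% of its exonic bases, and Mrnip had 26 to 54 counts per library. The related ubiquitin-binding receptors Nbr1 (0.04 ± 0.05), Optn (-0.16 ± 0.09) and Tax1bp1 (0.05 ± 0.05) did not pass, but Optn was called lower without shScrambled 1 (0.0442).

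Among the cargo receptors of the main list, 3 encode mitophagy receptors of the outer mitochondrial membrane. Fundc1 and Bnip3 fell and Bnip3l did not pass, beside 19.7% lower over all tested genes. Only the Fundc1 call held in all 14 alternative settings, and the 3 were not tested as a set. Among mitophagy genes of the further list described below, Bcl2l13 fell, while Fkbp8, Phb2, Nipsnap1, Nipsnap2 and Pink1 did not pass. Fundc1, on chromosome X at 17519967 to 17572329, had 338, 293 and 405 counts in shGAA and 428, 416 and 410 in shScrambled. It was at 34.6 ± 3.40 CPM in shGAA and 44.1 ± 0.477 CPM in shScrambled, with no overlap (-0.35 ± 0.08, adjusted p = 0.00234), and the call held in all 14 alternative settings. Bnip3 averaged 74.8 ± 3.23 CPM in shGAA and 87.0 ± 11.2 CPM in shScrambled (-0.22 ± 0.08, adjusted p = 0.0458), and the libraries overlapped. It was not called when any one of shGAA 1, shGAA 2, shGAA 3, shScrambled 2 or shScrambled 3 was left out (0.0795 to 0.206), nor in 4 other settings. Of its 50-base stretches 47.2% occur in other genes. Bnip3l, which encodes the paralog NIX, was at -0.01 ± 0.06 (adjusted p = 0.886), with 20.8% of its stretches shared with Bnip3l-ps.

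**Figure D3:**
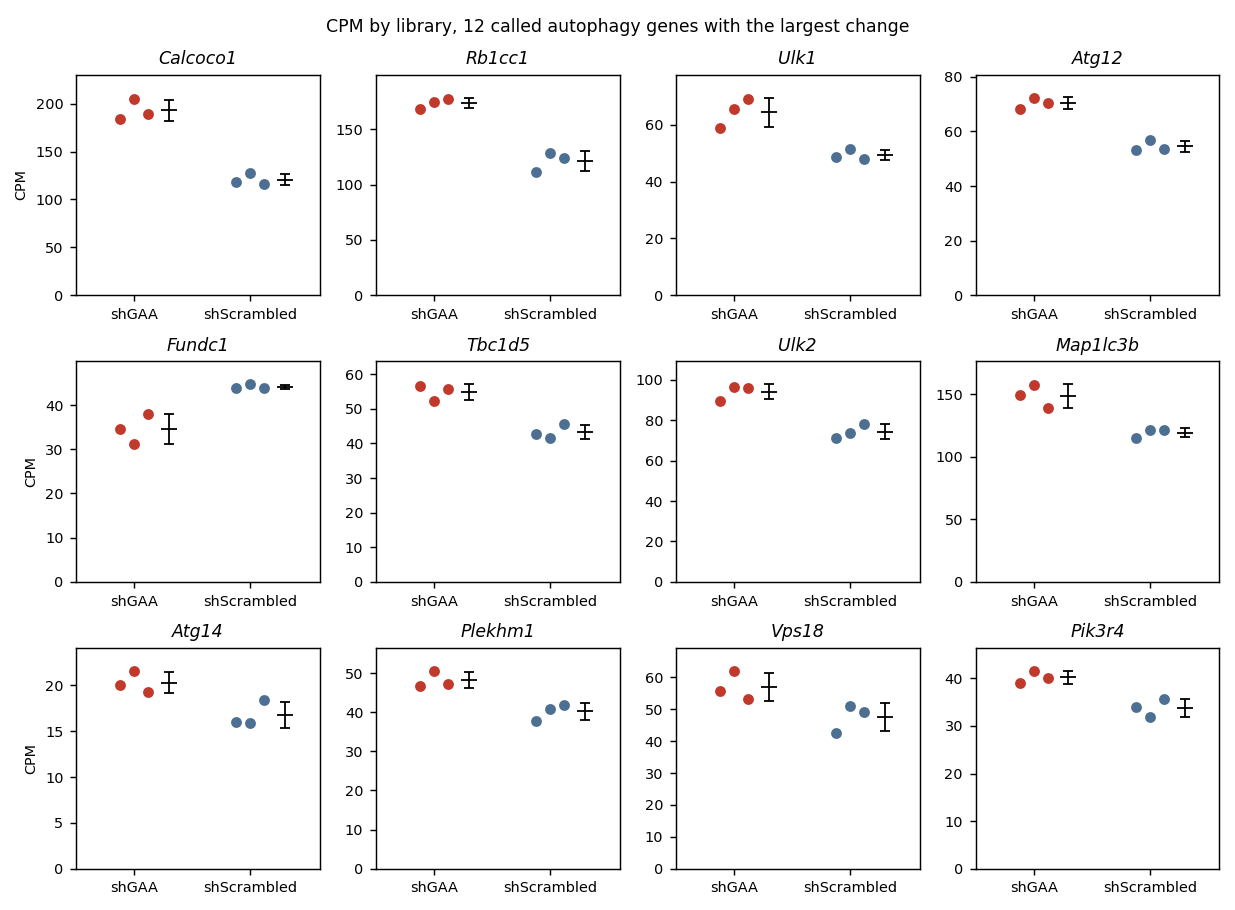
CPM in each library for the 12 called genes with the largest absolute log2 fold change, with shGAA (red) left of shScrambled (blue), the mean with SD beside the points (n = 3 each) and every axis from 0. In all 12 genes the groups did not overlap, and Fundc1 was the one that was lower in shGAA. The 12 were picked by their change in these same libraries, which favours such separation. Of all tested genes 24.7% were fully above and 24.9% fully below.

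Fusion with lysosomes needs the HOPS tethering complex, the GTPase Rab7 and the autophagosomal SNARE Stx17. Of the 4 HOPS genes in the main list, Vps18 and Vps41 rose, while Vps11 (0.01 ± 0.07, adjusted p = 0.929) and Vps39 (0.03 ± 0.07, adjusted p = 0.751) did not pass. The HOPS genes Vps33a and Vps16 are in the further list described below. Vps33a was called higher (0.16 ± 0.06, adjusted p = 0.0408) and Vps16 did not pass (-0.09 ± 0.07, adjusted p = 0.317). Vps18 had 545, 580 and 567 counts in shGAA and 414, 474 and 461 in shScrambled (0.26 ± 0.08, adjusted p = 0.0157), and the call was lost without shGAA 2 (0.1). Vps41 rose by 0.24 ± 0.06 (adjusted p = 0.00327), to 121 ± 3.07 CPM in shGAA, against 102 ± 6.18 CPM in shScrambled. Plekhm1, an adaptor that links Rab7, HOPS and LC3, had 458, 474 and 503 counts in shGAA and 368, 381 and 393 in shScrambled (0.26 ± 0.07, adjusted p = 0.00818). Tbc1d5, a GTPase-activating protein that switches Rab7 off, had 554, 490 and 592 counts in shGAA and 416, 387 and 426 in shScrambled (0.34 ± 0.07, adjusted p = 0.000767). In neither gene did the libraries overlap. Rab7 itself was lower, by little, at 527 ± 5.50 CPM in shGAA and 579 ± 24.1 CPM in shScrambled (-0.13 ± 0.04, adjusted p = 0.0229). The Rab7 call was lost without shGAA 1 (0.0603), shGAA 2 (0.0619), shGAA 3 (0.0755), shScrambled 2 (0.112) or shScrambled 3 (0.0637). Scaled by library size alone it did not pass either (0.115), nor with the length and GC correction (0.0829), and 11.1% of its stretches occur in Rab7-ps1. Stx17 was at 0.09 ± 0.09 (adjusted p = 0.450). The calls of Vps41, Plekhm1 and Tbc1d5 held in all 14 alternative settings.

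**Figure D4:**
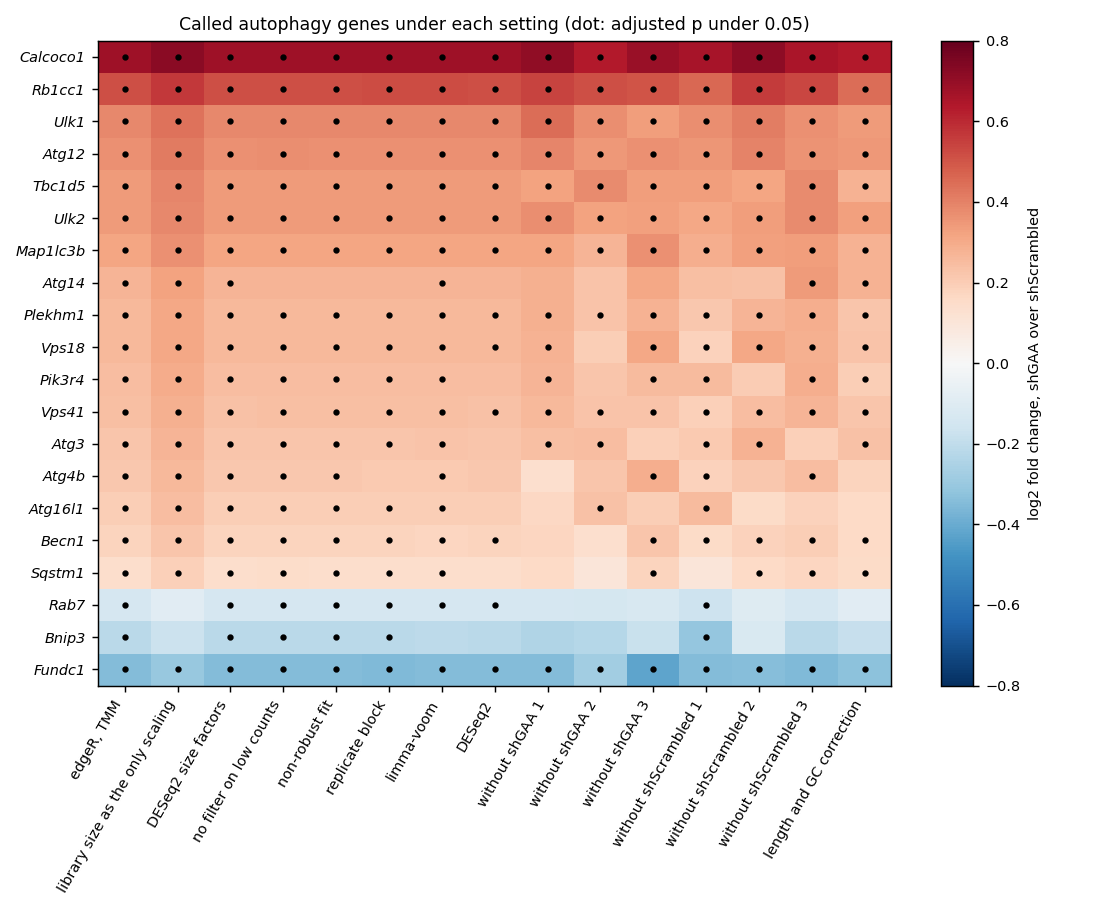
Log2 fold change (colour) of the 20 called genes, in rows, under the edgeR fit with TMM and the 14 alternative settings, in columns; a dot marks an adjusted p under 0.05. Of the 20 calls 10 carry a dot in every column, and no called gene changes sign.

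TFEB and related factors bind CACGTG, the core of the longer CLEAR consensus, in promoters of lysosomal and autophagy genes. RefSeq promoter windows (GRCm38.p6, 250 bases before to 50 after the start site) were at hand for 39 of the 48 genes. A gene could have several windows, 1 per start site (32851 windows over all genes). It counted as having a motif if any of them held it, and a window with the motif was then the one shown. Both motifs read the same on either strand, and the core lies within the consensus. Of the core, CACGTG, at least 1 copy occurred in 6 of the 39 genes (15.4%) and in 8.09% of all 27025 genes with a window. The full CLEAR consensus occurred in 0 of the 39 and in 0.370% of all genes. Of the 6 genes with CACGTG, Atg3, Atg14 and Tbc1d5 rose, Bnip3 fell, and Atg5 and Atg7 did not pass. Of the 33 without it 10 rose and 2 fell, beside 18.5% higher and 19.7% lower over all tested genes, and the groups with and without the motif were not tested against each other. The stretches from 120 bases before to 30 after the start site follow for the 4 called genes with the motif, and for Calcoco1 and Ulk1, the called genes with the largest changes among those with a window. Capitals mark CACGTG, and each is written 5′ to 3′ on the strand of its gene.
Atg3 (chr16:45158709-45158858, plus strand): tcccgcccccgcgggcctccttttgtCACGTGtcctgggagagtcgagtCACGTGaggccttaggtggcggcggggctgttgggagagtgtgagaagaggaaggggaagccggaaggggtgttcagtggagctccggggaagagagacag
Atg14 (chr14:47568405-47568554, minus strand): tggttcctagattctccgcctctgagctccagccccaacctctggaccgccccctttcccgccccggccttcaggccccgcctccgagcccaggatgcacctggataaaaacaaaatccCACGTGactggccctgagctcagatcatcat
Tbc1d5 (chr17:51179323-51179472, minus strand): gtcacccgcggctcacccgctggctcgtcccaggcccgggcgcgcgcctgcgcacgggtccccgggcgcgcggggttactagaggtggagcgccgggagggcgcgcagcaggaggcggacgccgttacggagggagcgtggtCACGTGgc
Bnip3 (chr7:138909477-138909626, minus strand): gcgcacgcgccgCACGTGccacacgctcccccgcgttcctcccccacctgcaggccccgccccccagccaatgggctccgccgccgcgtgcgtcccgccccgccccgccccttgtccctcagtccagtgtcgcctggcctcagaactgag
Calcoco1 (chr15:102722149-102722298, minus strand): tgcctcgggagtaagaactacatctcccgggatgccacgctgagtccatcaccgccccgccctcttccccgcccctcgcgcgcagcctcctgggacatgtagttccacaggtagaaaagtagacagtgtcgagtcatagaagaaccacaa
Ulk1 (chr5:110810052-110810201, minus strand): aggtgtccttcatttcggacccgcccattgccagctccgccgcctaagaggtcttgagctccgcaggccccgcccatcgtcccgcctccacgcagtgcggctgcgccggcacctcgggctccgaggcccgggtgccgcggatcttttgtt
The motif stood before the start site in Atg3, which had it at -94 and -71, and in Bnip3 at -108. In Atg14 it began at -1 and in Tbc1d5 at 23 after the start site of its window. That site lies inside Tbc1d5, a minus-strand gene that reaches to 51181199. The Atg7 window with the motif likewise lies inside its gene, which begins at 114643127. The letters are a description of the windows and do not show that a factor binds there.

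A further 63 autophagy genes, listed from textbook knowledge and sorted into the same steps, gave 61 tested genes. Of these 19 rose, 9 fell and 33 did not pass, with a median log2 fold change of 0.08, beside 18.5% higher and 19.7% lower over all genes. Of the 20 fusion genes of this list 9 rose and 1 fell, and of the 9 initiation genes 1 rose and 3 fell. The largest change was in Trp53inp1, a p53-induced gene whose product binds Atg8 proteins. It had 1170, 1216 and 1414 counts in shGAA and 428, 485 and 511 in shScrambled (1.34 ± 0.07, adjusted p = 1.66e-09). Its relative Trp53inp2, whose product also binds Atg8 proteins, fell to 178 ± 5.75 CPM in shGAA, against 247 ± 12.7 CPM in shScrambled (-0.47 ± 0.05, adjusted p = 2.15e-06). The pair thus moved in opposite directions, each without overlap. Rab7b, a GTPase related to Rab7, fell to 27.8 ± 1.29 CPM in shGAA, against 53.7 ± 9.71 CPM in shScrambled (-0.95 ± 0.12). Tbc1d2, which acts on Rab7, rose by 0.76 ± 0.15 from a low level, to 10.4 CPM in shGAA against 6.15 CPM in shScrambled. Sh3glb1, a membrane-curving partner of the Becn1 complex, was at 1365 ± 49.0 CPM in shGAA and 1038 ± 82.9 CPM in shScrambled (0.39 ± 0.05). Zfyve1, which marks the site of autophagosome formation, rose by 0.48 ± 0.07, and Chmp2b, of the membrane-sealing ESCRT machinery, by 0.40 ± 0.07. Among selective receptors and scaffolds the endoplasmic reticulum receptor gene Ccpg1 (0.44 ± 0.07) and the aggregate scaffold gene Wdfy3 (0.28 ± 0.05) rose. The mitophagy receptor gene Bcl2l13 fell (-0.30 ± 0.06), whereas the mitophagy genes Fkbp8 (-0.07), Phb2 (-0.05), Nipsnap1 (0.25), Nipsnap2 (0.16) and Pink1 (0.10) did not pass. The 10 calls named here, Trp53inp1 to Bcl2l13, held in all 14 alternative settings.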

How the data were processed

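The values deposited by the authors are raw counts, 1 row per gene symbol and 1 column per library. The submitters' processing notes name mm10, HISAT2 2.1.0, Subread, FastQC and edgeR. For the annotation, strand use and multi-mapping reads nothing is given in the sources used here, so reads of overlapping genes and near-identical copies may be misassigned. Genes were kept by filterByExpr, scaled by TMM (factors 0.979 to 1.02) and tested with edgeR 4.0.16 (robust quasi-likelihood fit, group as the only term; R 4.3.3). P-values were adjusted by Benjamini-Hochberg over all 11801 tested genes, with calls under 0.05. SE is the coefficient divided by the square root of F. Alternatives were DESeq2 1.42.0, limma-voom (limma 3.58.1), 2 scalings, no filter, a non-robust fit, a replicate block, each library left out and, added after seeing the data, a length and GC correction covering 96.6% of tested genes. The fits were tested on simulated data with far fewer changed genes than were called here, and edgeR's false calls exceeded the nominal share. Lengths, overlaps and shared 50-base stretches come from GENCODE M21 (GRCm38), and gene positions and promoters from RefSeq GRCm38.p6. Symbols not in the table were matched through RefSeq synonyms. Members, lists and paralog pairs were chosen with earlier results of these data known. All 48 members are named. Counts per library are given for Sqstm1, the Atg8 family and the 12 called members with the largest change, and up to 10 other autophagy genes with the smallest adjusted p are named. Names added after values were seen were Atg4a (counts), Cntd1, Mrnip, Myf5, the endothelial markers, Fkbp8, Phb2, Nipsnap1, Nipsnap2 and Pink1. Also added then were Des, Acta1, Ckm, Ttn, Tnnt3, Myh8, Top2a, Mki67, Stbd1, Vps16 and Vps33a.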

Additional observations from a re-analysis of the deposited data

How the results depend on the processing

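Of the 20 called genes, 10 kept their call and direction under all 14 alternatives (9 higher and Fundc1), and no called gene changed sign. Of the 28 others, 6 were called under at least 1 alternative. With 1 library left out, the counts of autophagy genes were 11 to 15 higher and 1 to 6 lower, 13 to 17 and 7 to 12 for the other autophagy genes, and 1674 to 2378 and 1866 to 2485 for all tested genes. DESeq2 called 11 members higher. Library size as the only scaling and the length and GC correction, chosen after seeing the data, each left 1 member lower. With library size as the only scaling, the median log2 fold change was 0.13 for all members, 0.14 for nucleation and 0.21 for fusion, and the length and GC correction gave 0.0462 for nucleation. The deviations of same-numbered libraries from their group means correlated at -0.04, 0.06 and -0.01 across genes. Not every library correlated best with its own number. Whether a shared replicate number marks a shared culture or preparation was not tested. The fit with the replicate number as a block called 15 members higher and 3 lower, and 2037 and 2197 of all genes.

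The 11 genes whose sign changed were all near 0 and uncalled. With 1 library left out, log2 fold changes ran from -0.0452 to 0.0655 for Atg101, -0.0611 to 0.0362 for Uvrag, -0.0023 to 0.0748 for Ambra1, -0.0275 to 0.1213 for Atg9a, -0.0198 to 0.125 for Wipi1, -0.0165 to 0.039 for Wipi2, -0.0399 to 0.1108 for Atg4c, -0.0421 to 0.0484 for Bnip3l, -0.0222 to 0.0672 for Vps11 and -0.0095 to 0.0548 for Vps39. With library size as the only scaling Uvrag was at 0.0390, Atg7 at 0.0023 and Bnip3l at 0.0354. Under the length and GC correction Wipi2 was at -0.0505, Bnip3l at 0.0001, Vps11 at -0.0063 and Vps39 at -0.0113. The cause of these shifts was not tested. Depth limits Atg4a most, and no interval here covers more than the spread between libraries.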
